A study of Capra hircus with 6 samples.

Results

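CSN1S1 encodes alpha-s1-casein, a major protein of goat milk, and it is the gene whose genotype defined the animals compared here. It is 1 of 6535 genes named singly in the platform annotation of this bovine array, where 1 probe of 8379, Bt00006833, carries its symbol, and that probe was chosen by its ID. RNA came from the lactating mammary gland of 6 goats, all of which, High goats included, had been deprived of food for 48 h. Their CSN1S1 genotype was Low in 3 and High in 3, and image names in the file headers write these as FF and AA. The sources used here do not give breed, age or stage of lactation. The goats were compared in pairs A, B and C, each of which put its Low and its High goat together on the same array. A further array of the pair exchanged the dyes Cy3 and Cy5, which gave 6 arrays and 12 dye readings, 6 per genotype. With 2 spots of the probe on each array, CSN1S1 had 24 spot readings. Both arrays of a pair repeat the same RNA, so each pair counts once and n = 3.

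Alpha-s1-casein belongs to the calcium-sensitive caseins, which are phosphorylated in the Golgi apparatus and packed with kappa-casein into the micelles that carry calcium and phosphate in milk. It is made by the secretory epithelial cells of the gland, where prolactin acting through the transcription factor STAT5, together with glucocorticoids, drives casein transcription. In goats CSN1S1 is highly polymorphic: alleles called strong, such as A, go with much alpha-s1-casein in milk, and F is known as a weak allele whose transcripts include forms that skip internal exons. RefSeq's gene order for goat assembly ARS1.2 places CSN1S1 in the casein cluster, followed by CSN2 (beta-casein), CSN1S2 (alpha-s2-casein), ODAM and CSN3 (kappa-casein). The sources used here do not say where the probe lies within the transcript, so its relation to exons that weak alleles skip was not tested.

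Before ratios were formed, the probe was bright in every High reading and dimmer, but far above background, in every Low reading. The background-subtracted signal, a linear scanner intensity averaged over both spots, was 9919 and 18393 in the High goat of pair A (in Cy3 and Cy5), 20995 and 31137 in that of pair B, and 38206 and 30496 in that of pair C. In the Low goats it was 2956 and 1706 in pair A (in Cy3 and Cy5), 5314 and 2421 in pair B, and 3450 and 7125 in pair C. The highest Low reading, 7125, was thus below the lowest High reading, 9919, even though these readings came from different arrays and had not been normalized. Both genotypes gave lower signals in pair A than in pair C in each dye. None of the 24 spots carried a quality flag.

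**Figure D1:**
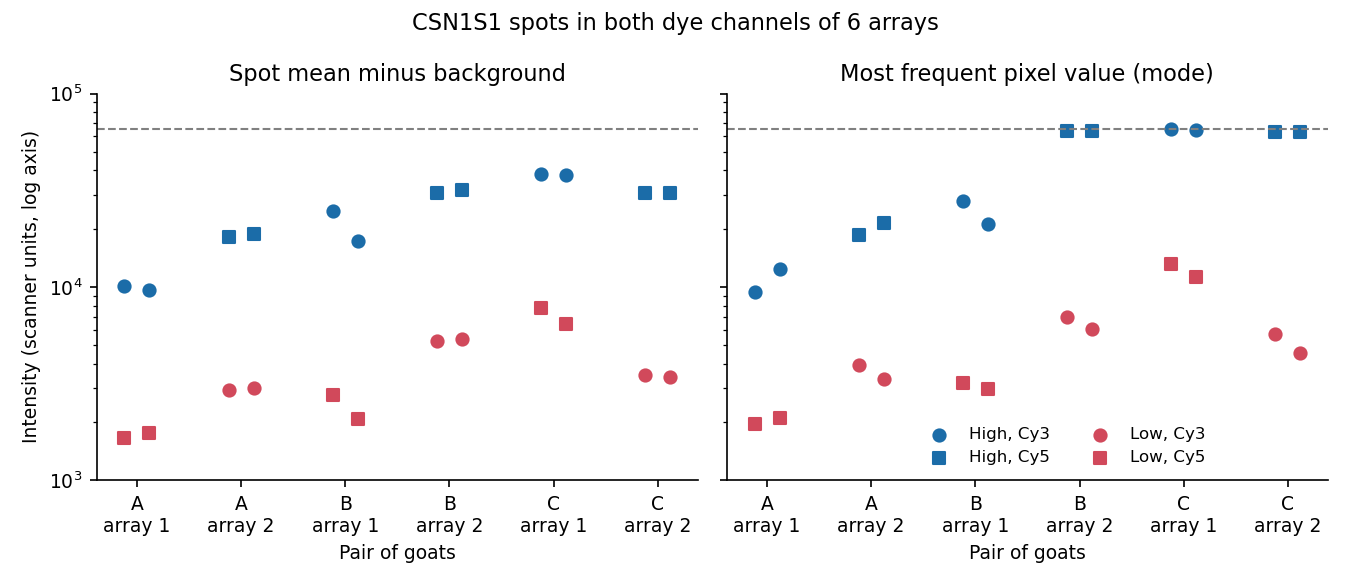
Intensity of the CSN1S1 spots in scanner units on a log axis, for each array (x axis, pairs A to C), with High goats in blue, Low goats in red, Cy3 as circles and Cy5 as squares. The left panel shows the spot mean minus background and the right panel the most frequent pixel value; the dashed line is the 16 bit limit of 65535. High spots lie above Low spots on every array, and 6 High spots come within 5% of the limit in the right panel.

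The brightest High spots came close to the upper limit of the scanner. A 16 bit image cannot hold a pixel above 65535, and the most frequent pixel value of a spot, its signal mode, lay within 5% of this limit in 6 of the 12 High spots and in 0 of the 12 Low spots. These were both High spots of the Cy5 reading in pair B (63670 and 63982) and all 4 High spots of pair C (65184 and 65122 in Cy3, 62948 and 63104 in Cy5). The scanner software marked 0 of the 24 spots as saturated. In pair A the modes of the High spots ran from 9425 to 21326, and in the Cy3 reading of pair B they were 27776 and 21168. On arrays with such pixels the High signal is bounded from above, so the measured ratio can understate the difference there.

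CSN1S1 was 6.55-fold lower in the Low goats. As log2 ratios of Low over High after normalization, the arrays with the Low goat in Cy5 gave -2.63 for pair A, -3.10 for pair B and -2.57 for pair C, and those with the Low goat in Cy3 gave -2.52, -2.58 and -2.88. The ratio was below 0 on 6 of 6 arrays and for 12 of 12 spot ratios. Averaged by pair it was -2.57, -2.84 and -2.73, with a mean of -2.71 ± 0.13 (SD, n = 3), and limma gave a 95% confidence interval of -2.83 to -2.60 and an adjusted p of 2.91e-09. On a linear scale the Low goats retained 15.3% of the High signal (interval 14.1% to 16.5%), with 16.8% in pair A, 14.0% in pair B and 15.1% in pair C. The adjusted p and both intervals rest on limma's moderated test over 6733 probes. The intervals are therefore not a measure of the spread of the 3 pairs alone. In that test the spread pooled over probes carries 7.47 degrees of freedom beside 2 from the pairs of this probe. Judged by its own 3 pairs alone, an exact permutation test by sign gave p = 0.25, two-sided, the smallest value that 3 pairs allow.

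**Figure D2:**
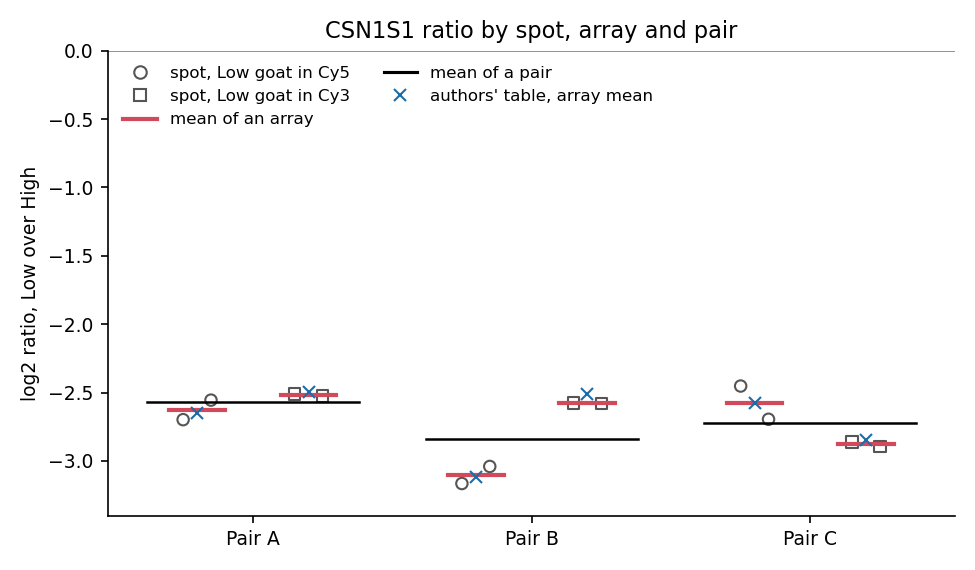
Log2 ratio of Low over High for CSN1S1 (y axis) in pairs A, B and C. Open symbols are single spots, red lines array means, black lines pair means and crosses the array means of the authors' deposited table. All values lie below -2.4, and the largest gap inside a pair is that of pair B, between -3.10 and -2.58.

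Few probes on the array passed the test between genotypes. Of the 6733 tested probes 0.446% changed in either direction (limma adjusted p under 0.05), and 0.416% were lower in the Low goats. The measured fall of CSN1S1 ranked 1 among the tested probes, except with plain background subtraction, where another probe fell further. The next was CC2D1A, a gene of a transcriptional repressor and signalling scaffold, measured at -1.65 ± 0.20 (SD, n = 3; limma adjusted p = 1.40e-06). CC2D1A was detected over background in 6 of 6 High readings, at a median rank of 3253, but in 1 of 6 Low readings, so background limits how large its fall can be measured. CSN1S1 was detected in 6 of 6 readings of each genotype. Over all tested probes the median log2 ratio was 0.00307 and the SD 0.0799, and 758 of them (11.3%) had an unadjusted p under 0.05 in limma.

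**Figure D3:**
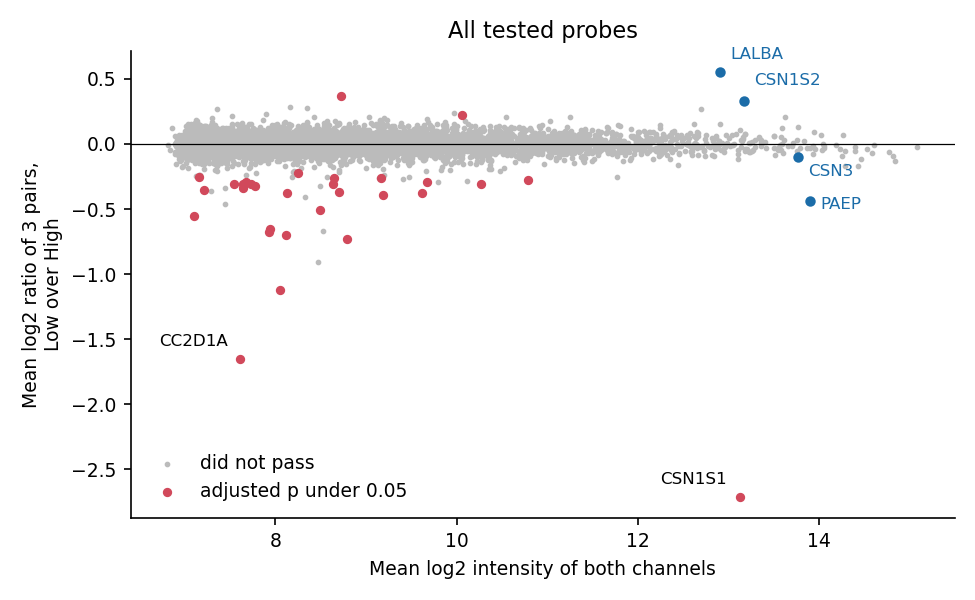
Mean log2 ratio of Low over High over the 3 pairs (y axis) against the mean log2 intensity of both channels (x axis) for the tested probes. Red points passed an adjusted p of 0.05 in limma, grey points did not, and blue points are 4 other milk protein probes, which did not pass. CSN1S1 sits at -2.71 among the bright probes, far from the others.

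The signal left in the Low goats was well measured. On each array the probe was compared with the 2442 control spots, which are named blank or empty. In the Low readings CSN1S1 was between 58.0 and 284 times the 99th percentile of the control spots of that reading, and 0 control spots were brighter. In the High readings it was between 122 and 1390 times that percentile. Against the median probe of the same reading, the Low signal was 9.85 to 33.8 times as high and the High signal 66.0 to 205 times. How much of the Low signal comes from transcripts that encode the full protein was not tested.

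Between genotypes the probe moved from among the brightest of the array to a lower place. Ranked by background-subtracted signal among all probes of a reading, with 1 as the brightest, it was 95, 37, 21, 5, 7 and 8 in the High readings (pairs A, B and C, arrays 1 and 2 in turn). In the Low readings it was 812, 411, 450, 152, 177 and 298 in the same order. The median rank was 14.5 in High and 354.5 in Low readings, and the groups did not overlap. The High median moves with the pair left out, to 7.5 without pair A, 22.5 without pair B and 29 without pair C. CSN1S1 took 0.165% to 0.605% of the summed probe signal of a High reading and 0.0251% to 0.103% of that of a Low reading. No probe was brighter than CSN1S1 in all 6 High readings, while 92 were in all 6 Low readings. A rank orders probe brightness, which also depends on how well each bovine probe binds goat transcripts and on the scanner limit, so it is no direct order of transcript abundance.

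**Figure D4:**
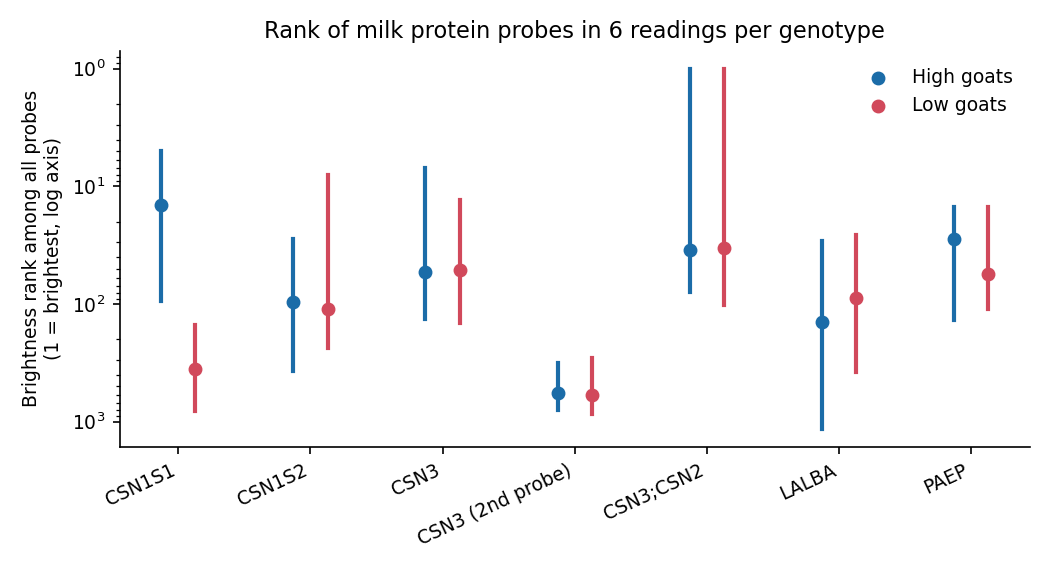
Brightness rank among 8379 probes (y axis, log scale, brightest at the top) of CSN1S1 and 6 other milk protein probes. Points are medians and bars the range over 6 readings, with High goats in blue and Low goats in red. The bars of the genotypes are separate for CSN1S1 (5 to 95 against 152 to 812) and overlap for each of the others.

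After normalization for brightness across arrays, the levels of the goats formed separate groups with a wide spread in each. The normalized log2 level was 13.62, 14.90 and 14.96 in the High goats (A, B, C) and 11.05, 12.06 and 12.24 in the Low goats. The highest Low goat was therefore below the lowest High goat, and pair A was lowest in both genotypes. The SD between goats was 0.64 in Low and 0.76 in High, against 0.13 between the pair ratios. The goats of a pair shared their arrays, so a difference between arrays and one between pairs of goats cannot be told apart. With the 3 Low goats set against the 3 High goats without the pairing, limma no longer called CSN1S1 (difference -2.71, adjusted p = 1). Leaving out the pairing counts the spread shared by the goats of a pair as error, for every probe. In that unpaired fit limma called 0 probes, and 11 had an unadjusted p under 0.05 (for CSN1S1 itself an exact permutation test over the goats gave p = 0.10, two-sided, the smallest possible). All 6 Low readings lay below all 6 High readings for 0.0891% of the tested probes, CSN1S1 among them.

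Exchanging the dyes moved the ratio by different amounts, and in different directions, in the 3 pairs. The ratio with the Low goat in Cy5 minus that with it in Cy3 was -0.11 in pair A, -0.53 in pair B and 0.30 in pair C. The mean difference was -0.11, with a limma 95% interval of -0.37 to 0.15 (adjusted p = 0.498), whereas 39.7% of all tested probes had a dye effect past the threshold. This absence of a call depends on the setting: with loess by printed block limma called a dye effect for CSN1S1 (adjusted p = 0.0194), as it did without pair C (adjusted p = 0.0184). The arrays with the Low goat in Cy5 alone gave a mean of -2.77 and those with it in Cy3 alone -2.66. Within an array, the spots of CSN1S1 differed by 0.005 to 0.243 on the log2 scale, with a median of 0.079.

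No difference between pairs passed against the spread between their arrays. Pair B minus pair A was -0.27 (limma 95% interval -0.59 to 0.05), pair C minus pair A was -0.15 (-0.48 to 0.17), and pair C minus pair B was 0.11 (-0.21 to 0.44). In limma's F test of the pairs CSN1S1 did not pass (adjusted p = 0.9995), and 0.208% of the tested probes did. These intervals are wide enough to leave a difference between pairs of up to 0.59 on the log2 scale undetected.

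The arrays were also split by whether the mode of a CSN1S1 spot came near the scanner limit. A mode below the limit does not show that no pixel of the spot reached it. On the 3 arrays where no CSN1S1 spot had a mode within 5% of the limit, both of pair A and 1 of pair B, the ratios were -2.63, -2.52 and -3.10. On the other 3 they were -2.58, -2.57 and -2.88, so the ranges overlap. Pair A lies wholly in the first group and pair C wholly in the second. Only pair B has an array of each kind, at -3.10 without and -2.58 with such modes, and these arrays also have the dyes exchanged. An effect of the limit on the ratio cannot be told apart here from pair and dye. Using the first 3 arrays alone, a choice made after seeing the data, the mean was -2.84 (SD 0.38, n = 2 pairs). In that mean pair B has its Low goat in Cy5 only, so dye does not cancel.

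The ratio was also read from the authors' deposited table. In the authors' deposited table the CSN1S1 rows gave array means of -2.65 and -2.50 in pair A, -3.12 and -2.51 in pair B, and -2.58 and -2.85 in pair C. In the authors' deposited table every one of the 12 spot values was below -2.4, the nearest to 0 being -2.46.

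**Figure D5:**
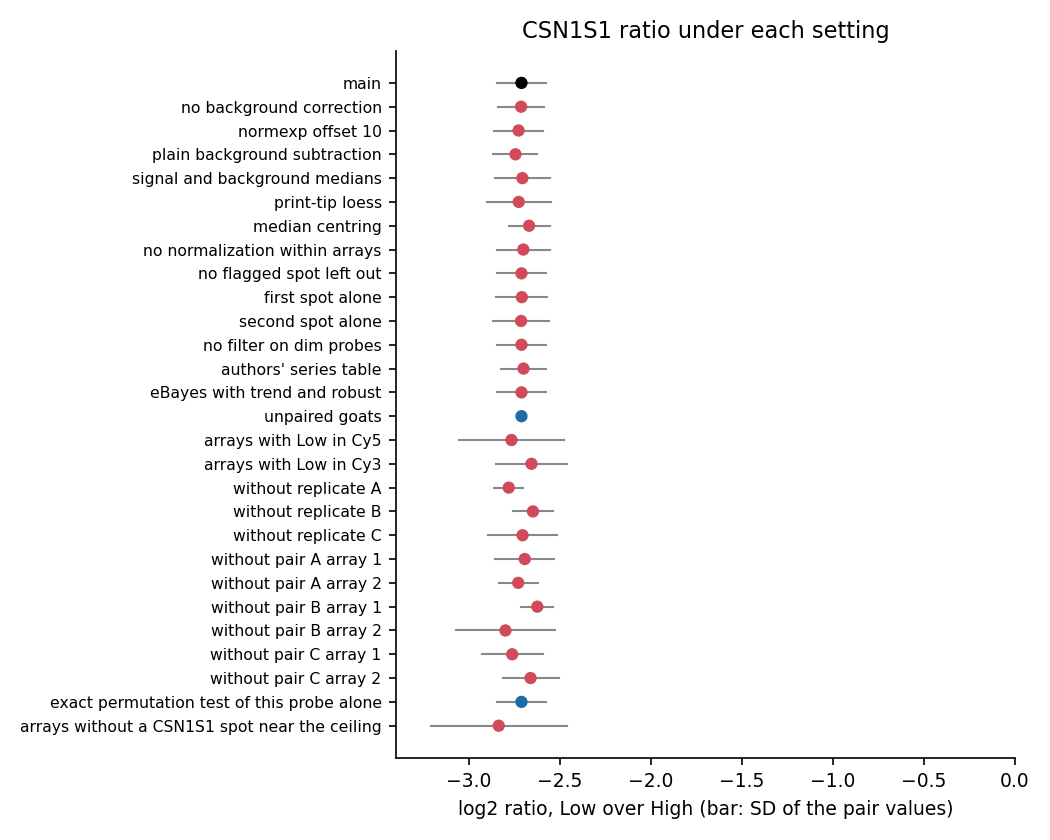
Mean log2 ratio of Low over High for CSN1S1 (x axis) under each processing setting (y axis), with bars for the SD of the pair values where there is one. Black is the value as reported, red settings passed the threshold, and the blue settings, unpaired goats and the exact permutation test, did not. All means lie between -2.84 and -2.62.

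The other casein probes did not pass the test, and their ratios lay far nearer to 0. In pairs A, B and C in turn, CSN1S2 gave 0.75, 0.53 and -0.29. The brighter probe of CSN3 gave 0.10, -0.32 and -0.08, its other probe 0.08, -0.24 and -0.05, and a probe that the annotation shares between CSN3 and CSN2 gave -0.15, 0.002 and -0.13. None of these 4 probes passed the threshold in limma (adjusted p from 0.448 to 0.637). CSN1S1 minus their mean was -2.76, -2.83 and -2.59 in the 3 pairs, a mean of -2.73 ± 0.13 (SD, n = 3), and on single arrays it lay between -2.92 and -2.47. The exact permutation test by sign gave p = 0.25, two-sided, again the smallest possible with 3 pairs. On the pair B array where CSN1S1 reached -3.10, the mean of the other casein probes was -0.18, against 0.17 on the other array of that pair. Measured against them, the gap between the arrays of pair B shrank from -3.10 and -2.58 to -2.92 and -2.74.

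Ranks show the same contrast with the other milk proteins. The CSN3 and CSN2 probe had a median rank of 35 in High and 33.5 in Low readings, the brighter CSN3 probe 53.5 and 51.5, and CSN1S2 95.5 and 110. LALBA, the alpha-lactalbumin subunit of lactose synthase, ranked 142.5 in High and 88.5 in Low readings, and PAEP, beta-lactoglobulin, 28 and 55.5. As log2 ratios in pairs A, B and C, LALBA was at 0.68, 0.94 and 0.04 and PAEP at -0.71, 0.06 and -0.66. Neither passed in limma (adjusted p of 0.170 and 0.271). For these probes the ranges of the genotypes overlapped. Spots outside CSN1S1 also came close to the limit of the scanner. A mode lay within 5% of it in 4 of 12 readings of the CSN3 and CSN2 probe. The same held in 2 of 12 readings each of PAEP and the brighter CSN3 probe, and in 1 of 12 of CSN1S2.

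Among the milk protein genes tested, CSN1S1 was the 1 that passed. Of 16 milk protein genes tested, from 21 listed, it fell and none rose, and without it the remaining 15 had a median log2 ratio of -0.020, with 9 below 0 and 6 above. Of these 15, 6 had an unadjusted p under 0.05, against 11.3% of all tested probes. LTF, the antimicrobial lactoferrin, was at -0.67 ± 0.56, LALBA at 0.55 ± 0.46 and SPP1, osteopontin, at -0.91 ± 0.87 (SD, n = 3 each), and these did not pass (limma adjusted p from 0.170 to 0.236). Of the 11 genes listed for the region of the casein cluster 3 were tested, and CSN1S1 was again the single gene that passed.

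The genes that control casein transcription showed no call. Of 30 regulators listed, 13 were tested and 0 passed in limma, against 0.446% of all tested probes. At so low a share, 0 calls in a list of this size say little about these genes. An unadjusted p under 0.05 was found for 1 of them, against 11.3% of all tested probes. Their log2 ratios ran from -0.12 to 0.10 around a median of 0.013. The smallest p belonged to PTPN11, a phosphatase in receptor signalling, at -0.12, followed by CISH, a STAT5 target that damps cytokine signalling, at 0.09, and the growth factor receptor IGF1R at 0.05. Named for their roles after their values were seen, STAT5A was at -0.03, STAT5B at 0.04, the prolactin receptor PRLR at -0.03 and the epithelial factor ELF5 at 0.01. The glucocorticoid receptor NR3C1, named in the same way, had the highest mean of the list, 0.10 ± 0.29 (SD, n = 3). Its pairs A, B and C were at 0.36, 0.14 and -0.21. STAT5A was a dim probe, detected over background in 4 of 6 readings of Low goats and 5 of 6 of High goats.

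Genes that act on casein after transcription gave no call either. Over all tested probes 0.446% passed, so 0 calls in lists this short say little about these genes. Of 16 genes of casein phosphorylation and secretion, 11 were tested and 0 passed in limma. An unadjusted p under 0.05 was found for 2 (11.3% over all tested probes), and the median log2 ratio was -0.008. The coat protein genes SEC24C and SEC13, which form vesicles leaving the endoplasmic reticulum, were at 0.17 and 0.10, and the cargo receptor TMED10 at -0.08. FAM20C, the Golgi kinase that phosphorylates caseins, was at -0.05 and was named for that role after its value was seen. Of 34 genes of nonsense-mediated and general mRNA decay, 7 were tested and 0 passed in limma (again beside 0.446% of all tested probes). An unadjusted p under 0.05 was found for 2 (beside 11.3%), and the median was 0.034. UPF2, a core factor of nonsense-mediated decay, was at -0.12, EIF4A3, of the exon junction complex, at 0.08, and EXOSC9, an exosome subunit, at 0.07. With 23 of these 34 genes not matched on the array, the list gives a partial view.

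The epithelial markers of the gland were detected, and their mean levels overlapped between genotypes. All 10 luminal epithelial markers on the array, of 14 listed, were above background in enough readings to be tested. Their mean normalized log2 level ran from 8.58 to 8.76 in Low and from 8.59 to 8.83 in High readings. None passed in limma, where 0.446% of all tested probes did, so the absence of a call in so short a list says little. An unadjusted p under 0.05 was found for 1, KRT19, a luminal keratin, at -0.13, against 11.3% of all tested probes. Another tested KRT19 probe was at -0.04 (unadjusted p = 0.363 in limma). The next of the list by p were the keratin KRT8 at -0.07 and the mucin MUC1 at 0.06. Markers of 6 other cell types were tested (myoepithelium, leukocytes, adipocytes, fibroblasts, endothelium and red blood cells). Of these 20 markers 0 passed in limma, again beside 0.446% of all tested probes, with log2 ratios from -0.27 to 0.12. An unadjusted p under 0.05 was found for 6 of the 20, against 11.3% of all tested probes. These were LEP (leptin, of adipocytes) at -0.27, and SPARC and VIM (matrix and filament proteins of fibroblasts) at -0.13 and -0.11. The others were ITGB2 and CD68 (of leukocytes) at -0.16 and 0.12, and KRT17 (a basal keratin) at -0.10. Another tested LEP probe, however, was at -0.05 (unadjusted p = 0.204 in limma). SPARC and VIM were below 0 on 6 of 6 arrays, and SPARC was detected over background in 3 of 6 Low readings. DCN, the brightest of the 3 tested fibroblast markers (median rank 295 in High and 261.5 in Low readings), was at 0.003. It was below 0 on 3 of 6 arrays. The part of these markers in the CSN1S1 difference was not tested. The ranges of the genotypes overlapped for 6 of these 6 lists. In tissue RNA, fewer cells of a type and less RNA per cell cannot be told apart.

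The probes whose levels correlated most with CSN1S1 over the 12 readings were WASHC2A (Pearson r = 0.80), RHBDD2 (0.80), CC2D1A (0.76), TCF19 (0.72) and POLR1D (0.71). They were taken as the 5 highest among tested probes with 1 symbol, the readings share arrays and dyes in pairs, and the median r over all other tested probes was 0.00135. CC2D1A, described above, passed the test. So did this probe of POLR1D, a subunit shared by RNA polymerases, at -0.31 (limma adjusted p = 0.0078), but another tested POLR1D probe was at 0.14 and did not pass (limma adjusted p = 0.32), so the probes of this gene disagree. WASHC2A, of the endosomal WASH complex, passed as well (limma adjusted p = 0.00127), but the probe was detected over background in 0 of 6 Low readings, so no size is given, and another tested probe of WASHC2A was at 0.09 and did not pass (limma adjusted p = 0.467). RHBDD2, a rhomboid family membrane protein, was at -0.29 and TCF19 at -0.16, and these did not pass (limma adjusted p of 0.082 and 0.277). For RHBDD2, detected in 6 of 6 readings of each genotype, r was 0.85 inside the Low and 0.58 inside the High readings. In the same order r was 0.44 and 0.84 for TCF19 and 0.66 and 0.63 for this POLR1D probe. For WASHC2A it was 0.03 and -0.20, and for CC2D1A -0.38 and -0.77. WASHC2A and CC2D1A were detected in 6 of 6 High but in 0 and 1 of 6 Low readings, so they passed the filter through the High readings. Their r inside the Low readings rests on signals near background and cannot show whether they followed CSN1S1. Inside the High readings r rests on 6 readings of 3 goats. Whether their levels follow that of CSN1S1 inside a genotype was not tested.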

How the data were processed

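Signal and background intensity of each spot and dye were read by the authors with ImaGene 6.0 per the labels (6.0.1 per the file headers) and deposited on a linear scale, with background not subtracted. Per the labels' protocols, 5 µg of total RNA was labelled directly. The authors also deposited a table of log2 ratios of Low over High per spot. Its direction and scale were checked against the scanner files (correlation with the raw log2 ratios of at least 0.894 in each of 20 intensity bins), its column medians run from -0.0143 to 0.00338, and the sources used here do not give its normalization.

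Goat number and dye in the image names matched the labels in 12 of 12 files. Ratios were computed with limma 3.58.1 in R 4.3.3: normexp background correction with offset 50, then 1 loess curve per array with blank and empty spots at weight 0. Spots marked manually or as poor, 26 to 67 on an array, were dropped. Spots and then the arrays of a pair were averaged. Testing was limited to probes with a value on every array and a signal more than 2 background SDs over background in 6 or more of 12 readings, which held for 6733 of 8379. Pair means were tested against 0 with limma and Benjamini-Hochberg adjustment over the tested probes, at a threshold of 0.05. Single-channel levels came from loess followed by Aquantile scaling. For a gene with several probes the brightest stood for it in a list. By reading, 66.3% to 87.3% of probes were detected over background, and median signal over background was 2.67 to 6.00. Precision is limited by there being 3 pairs. The procedure was tested on simulated arrays.

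Named are CSN1S1, the other caseins, LALBA and PAEP, the next largest fall and the 5 probes of highest r with CSN1S1. Also named are, of each list, the genes that passed and up to 3 others of smallest p. The gene, the lists and the tests were chosen with earlier results of these data known. The alternatives covered background correction, normalization, flags, spots, filter, dyes, pairing, single arrays and pairs. No probe sequence is printed, as none was in the sources used here.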

Additional observations from a re-analysis of the deposited data

Results flagged for a closer look

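The brightness rank of CSN1S1 in the High readings had a reading far from the others. In the Cy3 reading of pair A it ranked 95, while the remaining High readings ranked between 5 and 37. The gap from 95 to the nearest reading was 0.644 of the whole range, past Dixon's limit for 6 values, which chance passes in about 1 of 20 such groups, and 5 sets of CSN1S1 values were examined in this way. The cause was not tested. The log2 ratio of that array, -2.63, was not apart from those of the other arrays.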

How the results depend on the processing

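The CSN1S1 ratio kept its direction in 27 of 27 alternatives, between -2.84 and -2.62, and its call in 25. The call was lost with unpaired goats (-2.71, adjusted p = 1) and in the exact permutation test of this probe alone (-2.71, p = 0.25, the smallest possible). Leaving out a pair or an array gave -2.80 to -2.62. CSN1S1 had the largest fall in 25 of 26 refits, the exception being plain background subtraction, and the smallest p in 25 of 26, the exception being unpaired goats. The dye effect (mean of 0.5 times the difference between orientations) was -0.055 and changed sign with median centring (0.0078), without normalization within arrays (0.049) and without pair B (0.049). It was called with print-tip loess (-0.17), and leaving out a pair gave -0.16 to 0.049. CSN1S1 minus the other caseins stayed between -2.80 and -2.68, and the rank medians moved by less than their SD over readings. The number of probes called, 30 in the main analysis, was 19 with offset 10 and with medians, 18 with the second spot, 1 with plain subtraction, 16 on the arrays without near-limit CSN1S1 spots, 1153 and 2453 with the Low goat in Cy5 or Cy3 alone, 0 with unpaired goats (11 at an unadjusted p under 0.05), 67 without pair A, and 3 to 11 without 1 array. The cause of these changes was not tested.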
